A study of Mus musculus with 4 samples.

Results

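The translation initiation, elongation and termination factors are the proteins that bring the ribosome to an mRNA, find the start codon, move the ribosome along the message and release the finished protein. Their genes were taken by symbol, as all names that begin with Eif1 to Eif6, Eef1 or Eef2, together with Etf1, Gspt1 and Gspt2, and 67 of the 24391 symbols counted matched. Eif3j1 and Eif3j2 carried the same counts in every library. They were counted once, under Eif3j1, which left 66 genes. The annotation used here for gene positions places Eif3j2 in an intronless gene. Why the counts are the same was not tested, and the reads of this pair were not assigned to either copy.

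Initiation starts when eIF2 carries the initiator tRNA to the small ribosomal subunit, helped by eIF1, eIF1A, eIF3 and eIF5. The eIF4 proteins bind the cap of the mRNA and unwind its leader, and eIF5B helps the large subunit to join. Elongation then needs eEF1A, which delivers the aminoacyl tRNAs, and eEF2, which moves the ribosome by a codon at a time. The pathway is braked at known points, by kinases that phosphorylate eIF2α, by the 4E-BPs that capture the cap-binding protein eIF4E, and by the kinase of eEF2. In T-cells the translation machinery is known to expand with growth, and Notch and its target Myc are known regulators of growth in T-cell leukemia.

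RNA-Seq was performed in Beko cells, mouse leukemic progenitor T-cells in which Notch signaling is always on. All cells were kept for 48 h in DAPT, a γ-secretase inhibitor (GSI) that blocks the release of the Notch intracellular domain, with the inhibitor renewed at 24 h. The 2 GSI libraries were made at that point, and the 2 washout libraries after the cells had been washed and cultured for another 24 h. No library of cells that had never received GSI was compared here, and the washed cells were also handled and cultured for longer, so that the removal of the inhibitor and the added day in culture cannot be told apart. A single line was used, and nothing in the labels says whether the replicates came from separate cultures. The p-values measure only the spread between these libraries.

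Reads counted on genes ranged from 13716199 to 36364200 per library, replicate 1 being the deeper in both groups. All 12 markers of T-cell progenitors were detected. Of them 3 were higher after washout (Ptcra, Cd3g and Rag2, with log2 fold changes of 2.37, 0.86 and 0.64). Another 4 were lower (Tcf7, Cd247, Bcl11b and Thy1, with log2 fold changes of -0.87, -0.73, -0.72 and -0.58). By the same test, given below, 27.0% of all genes tested were higher and 25.4% lower. Of the Notch targets, 7 of 8 were higher after washout, with Notch3 as the exception. Ptcra is counted in both of these lists. Of 7 myeloid and mast cell markers 3 were at 0 in every library (Elane, Lyz2 and Fcer1a), and only Itgam and Cpa3 passed 3 counts in every library of a group. The summed level of this list was 115.6 to 224.8 CPM in GSI and 7.14 to 14.8 CPM after washout. The summed B cell list did not pass 1 CPM in any library, and Pax5, Ebf1 and Ms4a1 were at 0. The endothelial list summed to 173.9 to 221.2 CPM in GSI and to 64.6 to 67.2 CPM after washout, nearly all from Pecam1. The part of these marker genes in the results below was not tested. RNA came from whole cultures, in which fewer cells of a type and less RNA per cell cannot be told apart.

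Most translation factor genes rose after washout. Reads on all 67 symbols made up 2.24% and 2.15% of all counted reads in GSI replicates 1 and 2. In washout replicates 1 and 2 they made up 2.92% and 2.90%, so that the groups did not overlap. Here the counts of Eif3j1 and Eif3j2 entered under both symbols. These shares need no normalization factor. Of the 66 genes, 62 passed the filter on low counts. Eef1a2, Eif4e1b and Gspt2 were at 0 in every library, and Eif5a2 had a single read, in washout replicate 2. A count of 0 allows at most 3 reads, which corresponds to 0.0881 to 0.223 CPM in these libraries and covers counting error only.

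By edgeR's quasi-likelihood test at an adjusted p-value under 0.05, 44 of the 62 genes were higher after washout, 2 were lower and 16 were not called. The 44 are 71.0% of the members tested, whereas 27.0% of all 12266 genes tested were higher. The 2 that were lower are 3.23% of the members, against 25.4% of all genes. When a log2 fold change beyond 1 was also required, 16 members were higher and none was lower, against 7.74% and 11.7% of all genes. The median log2 fold change of the members was 0.71, with a range from -0.92 to 2.33, and 54 of the 62 values were above 0. The median over all genes tested was -0.01.

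**Figure D1:**
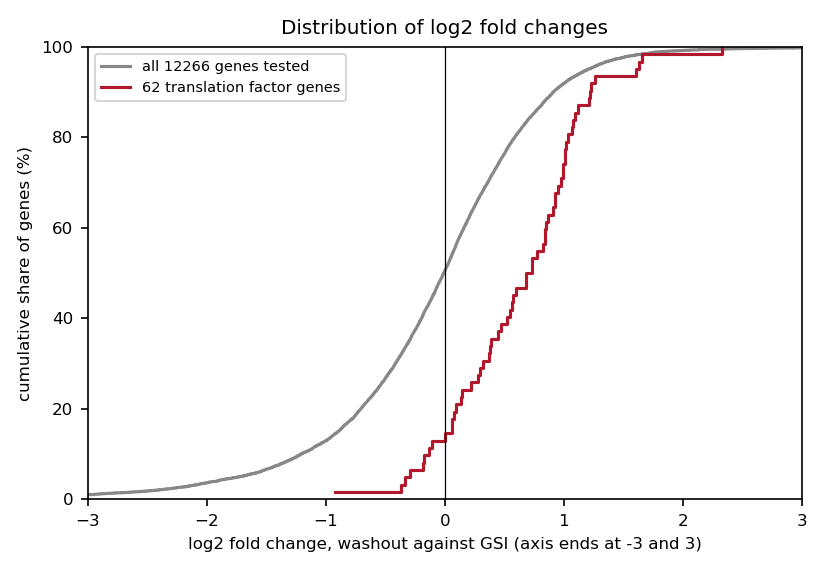
Cumulative share of genes (vertical axis, %) against the log2 fold change of washout over GSI (horizontal axis), for all 12266 genes tested and for the 62 translation factor genes. The line of the members lies to the right of the line of all genes over most of the range, with medians of 0.71 and -0.01.

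The scaling sets where the zero of this axis lies. With the total count alone in place of TMM factors, the log2 fold changes of all genes shifted by a median of -0.20, all genes then split into 18.9% higher and 34.6% lower, and the members into 36 higher and 5 lower. The estimates of 7 members close to 0, none of them called, changed sign in some alternative (Eef2k, Eef2kmt, Eif2b2, Eif3h, Eif3k, Eif4ebp3 and Eif4g3). The distance between the median of the members and that of all genes was 0.72 with TMM and 0.67 to 0.73 over the alternatives.

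**Figure D2:**
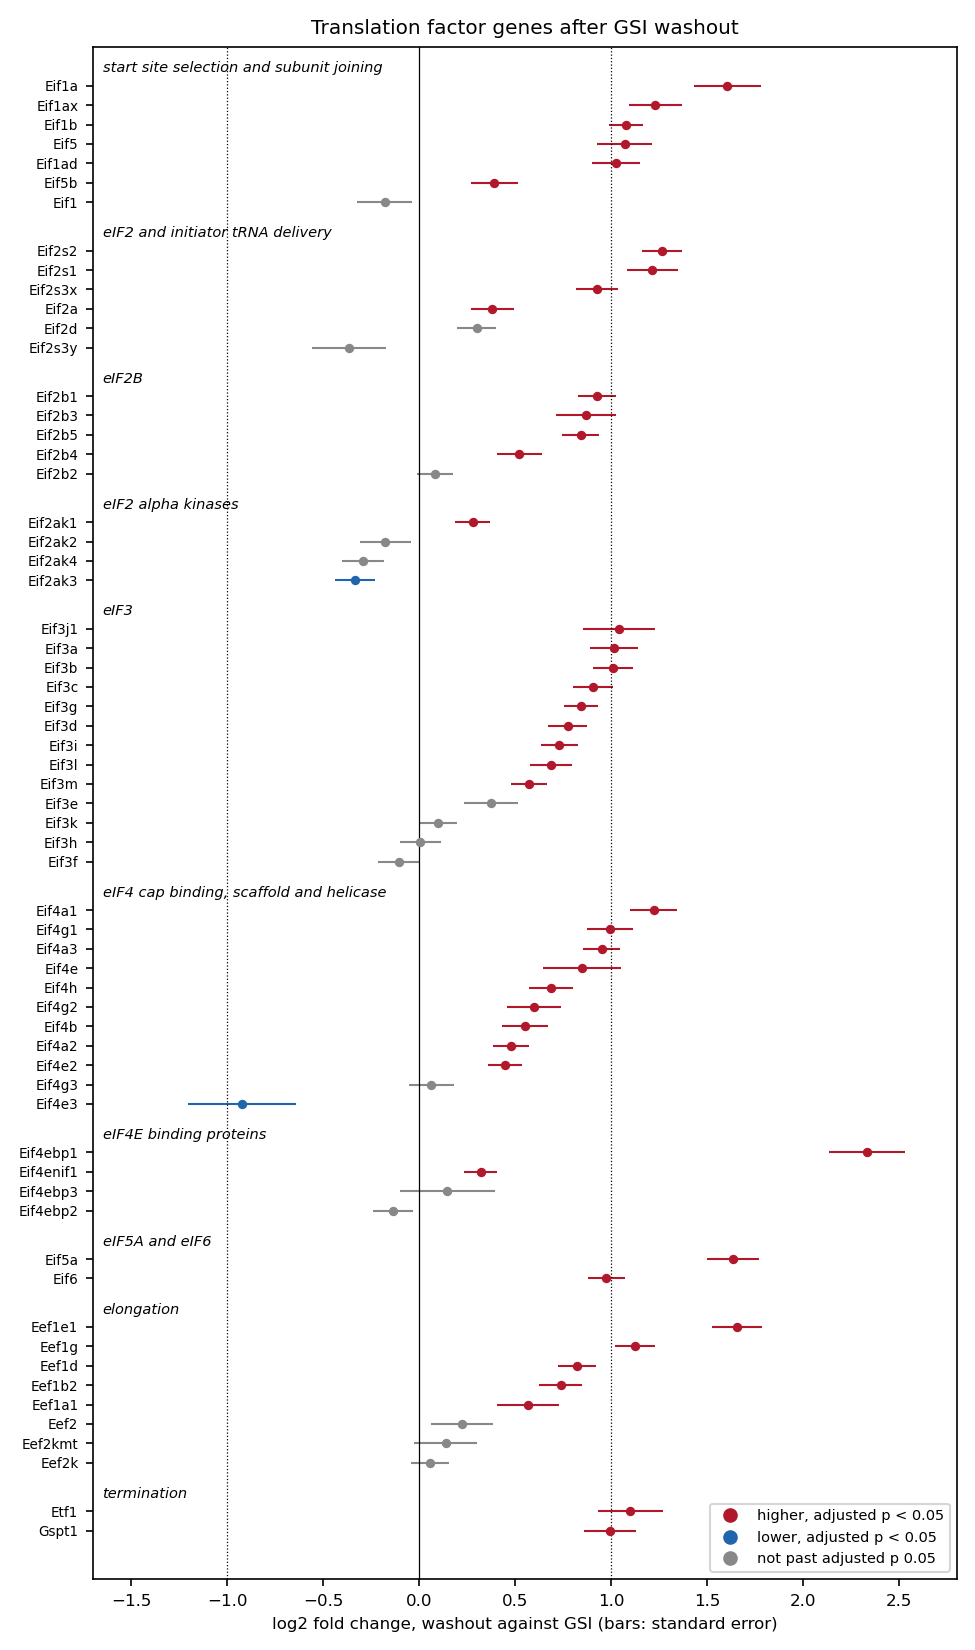
Log2 fold change of washout over GSI (horizontal axis) of each of the 62 translation factor genes tested, ordered by role, with points for edgeR's estimate and bars for its standard error. Nearly all points lie right of 0, Eif4ebp1 is the farthest at 2.33, and Eif4e3 is the only member near -1.

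The promoters were searched for letters that bind known regulators, since many members moved in the same direction. Promoters of 51 of the 66 genes were found in the RefSeq table of the GRCm38.p6 build, each with 250 bases before the start and 50 bases from it. The E-box CACGTG, the site of Myc and its partner Max, reads the same on both strands and was found in 12 of the 51 genes. This is 23.5%, against 8.09% of all 27025 genes with a listed promoter. Among the members tested here, 11 held the letters and 38 did not. Of all 9073 genes tested here that have a listed promoter, 11.7% held them. A gene was counted if any of its listed promoters held the letters, so genes with more starts had more chances. The windows below show the E-box in capitals within 40 bases, 5′ to 3′ on the strand of the gene. They were chosen to set members that rose beside members that were not called. Eif3a, Eif4a1 and Eif5a2 also carry the letters and are not shown. Eif3a and Eif4a1 rose by log2 fold changes of 1.01 and 1.22, and Eif5a2 did not pass the filter.
Eif5a, chr11:69921438-69921477, minus strand: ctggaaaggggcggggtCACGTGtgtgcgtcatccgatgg
Eif1b, chr9:120492565-120492604, plus strand: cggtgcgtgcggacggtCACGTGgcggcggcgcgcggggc
Eif4g1, chr16:20672656-20672695, plus strand: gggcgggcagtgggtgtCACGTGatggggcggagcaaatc
Eif4e, chr3:138527187-138527226, plus strand: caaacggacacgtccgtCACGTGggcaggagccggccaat
Eif4h, chr5:134639483-134639522, minus strand: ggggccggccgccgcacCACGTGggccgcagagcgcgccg
Eef2, chr10:81176571-81176610, plus strand: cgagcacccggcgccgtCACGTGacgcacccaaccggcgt
Eef2k, chr7:120842783-120842822, plus strand: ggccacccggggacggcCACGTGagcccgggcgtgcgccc
Eif3f, chr7:108934330-108934369, plus strand: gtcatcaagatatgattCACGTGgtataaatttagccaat
Eif3k, chr7:28981910-28981949, minus strand: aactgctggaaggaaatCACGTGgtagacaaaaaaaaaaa

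The E-boxes shown lie between 24 bases (Eif1b) and 96 bases (Eif4h) before the start. Eif5a, Eif1b, Eif4g1, Eif4e and Eif4h rose after washout, whereas Eef2, Eef2k, Eif3f and Eif3k carry the same letters and were not called. The median log2 fold change was 0.85 for the 11 tested members with an E-box, with a range from -0.11 to 1.63, and 0.57 for the 38 without. These values overlap widely and are given as a description. The core letters of the RBPJ site, TGGGAA or TTCCCA on the other strand, were found in 16 of the 51 genes (31.4%). This compares with 28.3% of all genes with a listed promoter. Of the members tested here, 15 held these letters and 34 did not, against 26.2% of all genes tested with a listed promoter. The median log2 fold change was 0.39 for the 15 tested members with these letters and 0.75 for the 34 without, and these values overlap as well. An E-box and an RBPJ core can overlap by the letters TG.

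A C at the start followed by 4 pyrimidines, the letters that open mRNAs with a terminal oligopyrimidine tract, was found in 2 of the 51 genes (3.92%, against 3.01% of all). Such mRNAs are known to be translated under the control of mTORC1. The first 20 bases are shown with these letters in capitals.
Eif3f, chr7:108934415-108934434, plus strand: CTCTCtttctcggcaagatg
Eif2s3x, chrX:94212632-94212651, minus strand: CTTTTctctccgagcaagat
Eif2s3x rose after washout and Eif3f was not called. The starts are those of the reference transcripts, and the start used in Beko cells was not measured here. The letters were sought only at the exact reference start, so a tract that begins beside it was missed. The 3.92% therefore cannot say how many members have such mRNAs.

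The group of start codon selection and subunit joining held more of the strong rises than any other group of 3 or more members. Most of its members recognise the AUG or control when the subunits join, and Eif1ad was listed with them although it only shares a domain with eIF1A. Of 7 genes, 6 were higher and 5 were also past the log2 fold change of 1, with a median of 1.07. Eif1a, which encodes the scanning factor eIF1A, stood at 40.7 and 35.6 CPM in GSI replicates 1 and 2 and at 134.9 and 96.8 CPM in washout replicates 1 and 2. Both washout libraries lay well above both GSI libraries, and the replicates after washout lay farther apart than those in GSI. The log2 fold change was 1.603 (SE 0.17, adjusted p = 0.000864, edgeR's quasi-likelihood test after Benjamini-Hochberg adjustment, n = 2 per group).

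Eif1ax, the X-linked copy of the same factor, was at 55.5 and 47.3 CPM in GSI and at 132.4 and 108.9 CPM after washout. Both copies rose without overlap between the groups, Eif1ax by a log2 fold change of 1.23. Eif1a made up 57.3% and 57.9% of the level of the pair per exon length in GSI, and 65.1% and 61.9% after washout. The mixture moved by 5.91 percentage points towards Eif1a. The authors' alignment kept a single position per read, so reads that fit several copies equally well may be counted on the wrong copy. This limit holds for every share between paralogs given below, and its size was not tested.

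The eIF1 pair behaved differently. eIF1 guards the stringency of start codon choice, and it has a close relative in Eif1b. Eif1b was at 56.9 and 56.6 CPM in GSI and at 118.4 and 121.4 CPM after washout, and rose by a log2 fold change of 1.08 (SE 0.09). Eif1 itself was at 58.0 and 47.2 CPM in GSI and at 50.7 and 42.0 CPM after washout, with overlapping libraries and a log2 fold change of -0.18 (SE 0.15, adjusted p = 0.334 by edgeR's quasi-likelihood test after Benjamini-Hochberg adjustment). The share of Eif1 in the level of the pair per exon length was 30.8% and 26.7% in GSI and 15.8% and 13.2% after washout.

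Of the others, Eif5, the GTPase activator of eIF2, was at 140.1 and 133.3 CPM in GSI and at 324.1 and 249.0 CPM after washout. Eif1ad, which has an eIF1A domain, was at 65.5 and 81.4 CPM in GSI and at 145.5 and 152.4 CPM after washout. Their log2 fold changes were 1.07 and 1.02. Eif5b, the subunit-joining GTPase, was called with a log2 fold change of 0.39, and this call was lost without either GSI library or without washout replicate 1 (0.24).

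eIF2 is the trimer that carries the initiator tRNA, and all 3 of its chains rose, provided the X-linked copy of the γ chain is taken. The β chain gene Eif2s2 was at 108.7 and 104.5 CPM in GSI and at 270.9 and 240.9 CPM after washout. The α chain gene Eif2s1, whose protein is the substrate of the stress kinases, was at 106.1 and 96.0 CPM in GSI and at 259.4 and 208.9 CPM after washout. In both genes every washout library was higher than every GSI library, by log2 fold changes of 1.26 (SE 0.10) and 1.21 (SE 0.13).

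The γ chain is encoded on both sex chromosomes of the mouse. Eif2s3x was at 142.2 and 142.8 CPM in GSI and at 290.4 and 249.7 CPM after washout, and rose by a log2 fold change of 0.92 (SE 0.11). Eif2s3y was at 81.0 and 70.0 CPM in GSI and at 69.6 and 46.8 CPM after washout. It had a log2 fold change of -0.37 (SE 0.19, adjusted p = 0.154 by edgeR's quasi-likelihood test after Benjamini-Hochberg adjustment), was called lower at -0.69 without washout replicate 1, and was -0.10 without washout replicate 2. Per exon length, Eif2s3x made up 65.7% and 69.0% of the pair in GSI and 82.0% and 85.4% after washout, with no overlap.

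Eif2a and Eif2d, which can deliver initiator tRNA without eIF2, had smaller values. Eif2a rose by a log2 fold change of 0.38 and Eif2d was not called at 0.30 (adjusted p = 0.0504 by edgeR's quasi-likelihood test after Benjamini-Hochberg adjustment).

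eIF2B recharges eIF2 with GTP after each round. Of its 5 subunit genes 4 rose, by log2 fold changes of 0.92 (Eif2b1), 0.87 (Eif2b3), 0.84 (Eif2b5) and 0.52 (Eif2b4), and none passed 1. Eif2b5 encodes the catalytic ε subunit and was at 104.7 and 96.4 CPM in GSI and at 177.6 and 182.5 CPM after washout. The β subunit gene Eif2b2 was at 60.3 and 60.2 CPM in GSI and at 61.3 and 66.3 CPM after washout, with a log2 fold change of 0.08 (SE 0.09). Thus 1 subunit of the complex differed by less than its error while the other 4 rose.

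The 4 kinases of eIF2α, which shut down initiation under stress, did not share the rise. Their summed level was 279.2 and 283.1 CPM in GSI and 254.0 and 253.4 CPM after washout. Eif2ak1 (HRI, the heme-regulated kinase) was at 58.6 and 55.5 CPM in GSI and at 68.2 and 70.4 CPM after washout. It was called higher at a log2 fold change of 0.28. Of the 5675 exon bases of Eif2ak1, 659 are shared with Aimp2 and Ankrd61 on the other strand. Aimp2 rose by 1.52, and whether its reads reached the count of Eif2ak1 was not tested. Eif2ak3 (PERK, the kinase of the endoplasmic reticulum) was at 100.3 and 115.3 CPM in GSI and at 84.2 and 86.5 CPM after washout, and was called lower at -0.34. Both calls were small. That of Eif2ak1 was lost with any library left out, and that of Eif2ak3 with GSI replicate 2 left out (-0.22) or with either washout library left out.

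Eif2ak4 (GCN2, the kinase of amino acid starvation) was at 55.0 and 54.5 CPM in GSI and at 41.6 and 48.0 CPM after washout, with a log2 fold change of -0.29 (adjusted p = 0.0616 by edgeR's quasi-likelihood test after Benjamini-Hochberg adjustment). Its groups did not overlap, and it was -0.18 without washout replicate 1 and called lower at -0.38 without washout replicate 2. Eif2ak2 (PKR, the kinase of double-stranded RNA) overlapped between the groups and had a log2 fold change of -0.18. Of the phosphatase subunits that act against these kinases, the constitutive Ppp1r15b rose by 0.60. The stress-inducible Ppp1r15a was at 50.04 and 24.7 CPM in GSI and at 21.3 and 19.8 CPM after washout, and was not called at a log2 fold change of -0.88. It was -0.27 without GSI replicate 1, and was called lower without GSI replicate 2 (-1.27) or without washout replicate 1 (-0.94).

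**Figure D3:**
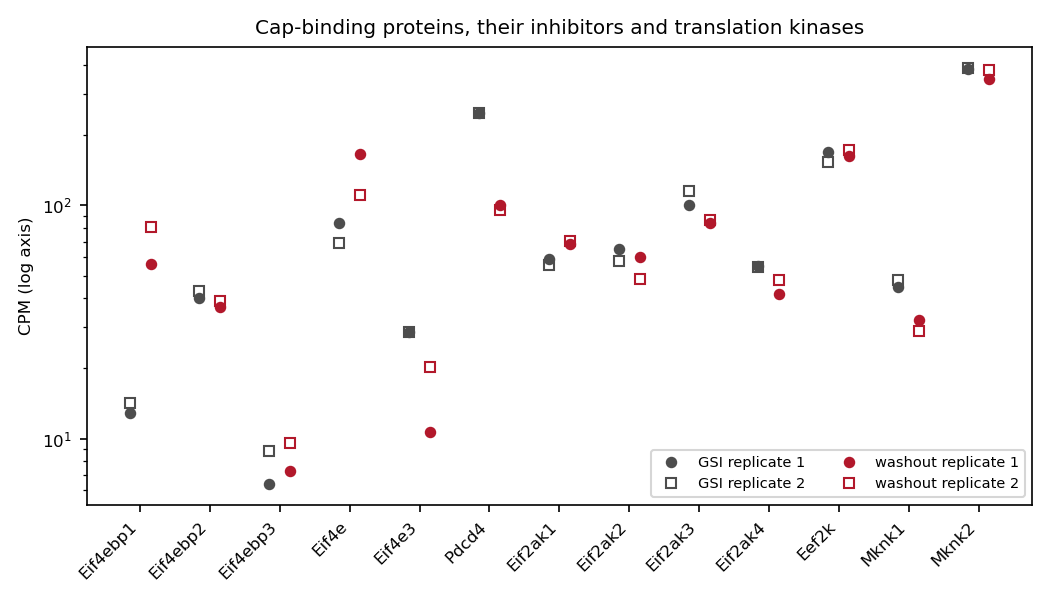
Level in CPM (vertical log axis) of the cap-binding proteins, their inhibitors and the kinases of translation in each of the 4 libraries, with circles for replicate 1 and squares for replicate 2. Eif4ebp1 is higher in both washout libraries, Pdcd4 and Mknk1 are lower, and the eIF2α kinases and Eef2k lie close together in the groups.

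eIF3 is the largest initiation factor, a scaffold on the small subunit. Of its 13 genes 9 rose, 3 of them past a log2 fold change of 1, and 4 were not called. Eif3a, the largest subunit, was at 468.6 and 450.2 CPM in GSI and at 994.0 and 858.5 CPM after washout. Eif3b, the subunit that holds the core together, was at 205.0 and 210.8 CPM in GSI and at 440.7 and 395.1 CPM after washout. Eif3j1, a loosely bound subunit near the decoding site, was at 49.9 and 42.8 CPM in GSI and at 112.6 and 77.5 CPM after washout. Each of these genes rose by a log2 fold change of 1.01 to 1.04, with no overlap.

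The 4 subunit genes that were not called included some of the most abundant. Eif3h was at 367.1 and 335.5 CPM in GSI and at 340.3 and 364.8 CPM after washout, with a log2 fold change of 0.00 (SE 0.11). Eif3f was at 352.8 and 330.9 CPM in GSI and at 298.9 and 336.4 CPM after washout (-0.11, SE 0.11), and Eif3k had a log2 fold change of 0.10. In Eif3h and Eif3f the libraries of the groups overlapped. Eif3e was at 320.2 and 272.9 CPM in GSI and at 420.8 and 347.6 CPM after washout, with a log2 fold change of 0.37 (adjusted p = 0.0639 by edgeR's quasi-likelihood test after Benjamini-Hochberg adjustment). It was 0.23 without washout replicate 1 and was called at 0.52 without washout replicate 2.

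The subunits that mammals share with budding yeast, Eif3a, Eif3b, Eif3c, Eif3g, Eif3i and Eif3j1, were all 6 called higher, with log2 fold changes from 0.73 (Eif3i) through 0.84 (Eif3g) and 0.91 (Eif3c) to 1.04 (Eif3j1) and a median of 0.96. Of the other 7, Eif3d, Eif3l and Eif3m rose (0.77, 0.68 and 0.57), and the median was 0.37. This division was made after the values had been seen and carries no test. Per kb of exon, the levels without Eif3j1 spanned a range of 6.99-fold and 6.33-fold in GSI and of 4.54-fold and 5.26-fold after washout. In GSI the order ran from Eif3h at 280.4 CPM per kb, through Eif3e at 192.5 and Eif3k at 187.5, to Eif3b at 70.0, Eif3i at 52.4 and Eif3m at 42.1. The exon lengths cover every annotated transcript, with 1074 bases for Eif3k and 3702 for Eif3i, so this order depends on the annotation too. After washout Eif3l (301.2) and Eif3d (299.9) stood beside Eif3h (281.3), and the libraries of Eif3l overlapped with those of both, whereas both libraries of Eif3d (296.3 and 303.5) were above both of Eif3h (271.6 and 291.1).

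**Figure D4:**
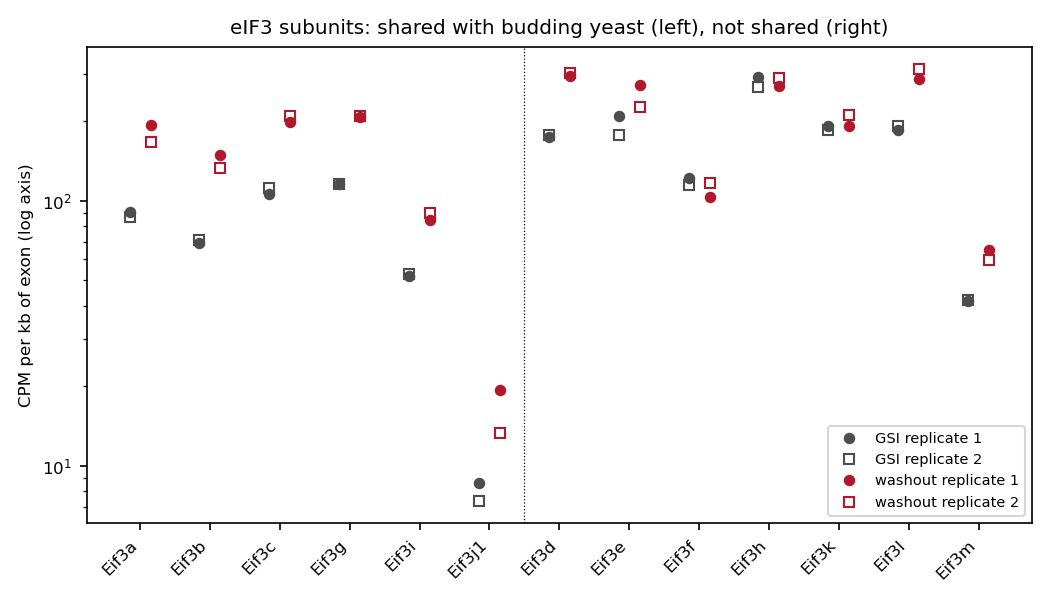
Level per kb of exon (CPM per kb, vertical log axis) of the 13 eIF3 subunit genes in each library, with circles for replicate 1 and squares for replicate 2, and the subunits shared with budding yeast on the left of the dotted line. On the left all subunits are higher in both washout libraries, and on the right Eif3f and Eif3h overlap between the groups.

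The eIF4 group holds the cap-binding protein, its scaffold and the helicase that opens the leader of the mRNA. Of 11 genes tested 9 rose and 1 fell, and only Eif4a1 passed a log2 fold change of 1. Eif4a1, the main helicase, was at 579.3 and 550.7 CPM in GSI and at 1376 and 1257 CPM after washout, a log2 fold change of 1.22 (SE 0.12, adjusted p = 0.000687 by edgeR's quasi-likelihood test after Benjamini-Hochberg adjustment). Its relative Eif4a2 was at 189.3 and 189.2 CPM in GSI and at 269.1 and 257.0 CPM after washout, and rose by 0.48. Eif4a1 made up 79.0% and 78.2% of their summed level per exon length in GSI and 86.3% and 85.8% after washout. Eif4a3, a helicase of the exon junction complex rather than of the cap, was at 179.8 and 176.3 CPM in GSI and at 337.6 and 350.0 CPM after washout (0.95). The exons of both Eif4a1 and Eif4a2 also hold small nucleolar RNA genes on the same strand. Eif4a1 shares 287 exon bases with other genes, and Eif4a2 shares 705, part of them with Rfc4 on the other strand. The share of Eif4a1 is therefore uncertain on both sides.

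Among the scaffolds, Eif4g1, which joins the cap-binding protein to eIF3, was at 536.6 and 588.9 CPM in GSI and at 1131 and 1108 CPM after washout. It rose by a log2 fold change of 0.99. Eif4g2, which lacks the eIF4E-binding part and serves initiation without it, rose by 0.60. It shares 150 exon bases with a small nucleolar RNA gene on the same strand. Eif4g3 overlapped between the groups at 0.06. Per exon length, Eif4g1 was 46.4% and 47.5% of the family in GSI and 53.1% and 56.7% after washout. The helicase cofactors Eif4h and Eif4b rose by 0.68 and 0.55.

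The cap-binding proteins went in opposite directions. Eif4e was at 84.2 and 69.2 CPM in GSI and at 165.4 and 110.5 CPM after washout. It rose by a log2 fold change of 0.85 (SE 0.20, adjusted p = 0.0144 by edgeR's quasi-likelihood test after Benjamini-Hochberg adjustment), which was 0.53 without washout replicate 1. Eif4e2, which serves mRNA repression, rose by 0.45. Eif4e3, an atypical cap-binding relative, lies at chr6:99207478-99616791 (mm9, minus strand). It was at 28.6 CPM in both GSI libraries and at 10.7 and 20.2 CPM after washout, so that both washout libraries were lower but far apart. Its log2 fold change was -0.92 (SE 0.28, adjusted p = 0.0335 by edgeR's quasi-likelihood test after Benjamini-Hochberg adjustment), with -0.49 without washout replicate 1, -1.40 without washout replicate 2, and no call without either GSI library. Of the 5700 exon bases of Eif4e3, 75 are shared with Foxp1 on the same strand.

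Per exon length, Eif4e made up 64.3% and 60.4% of the 3 cap-binding genes in GSI and 77.4% and 67.4% after washout. Eif4e3 made up 11.1% and 12.6% in GSI and 2.53% and 6.24% after washout. Each share was separate between the groups, by less for Eif4e in washout replicate 2 than in replicate 1.

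**Figure D5:**
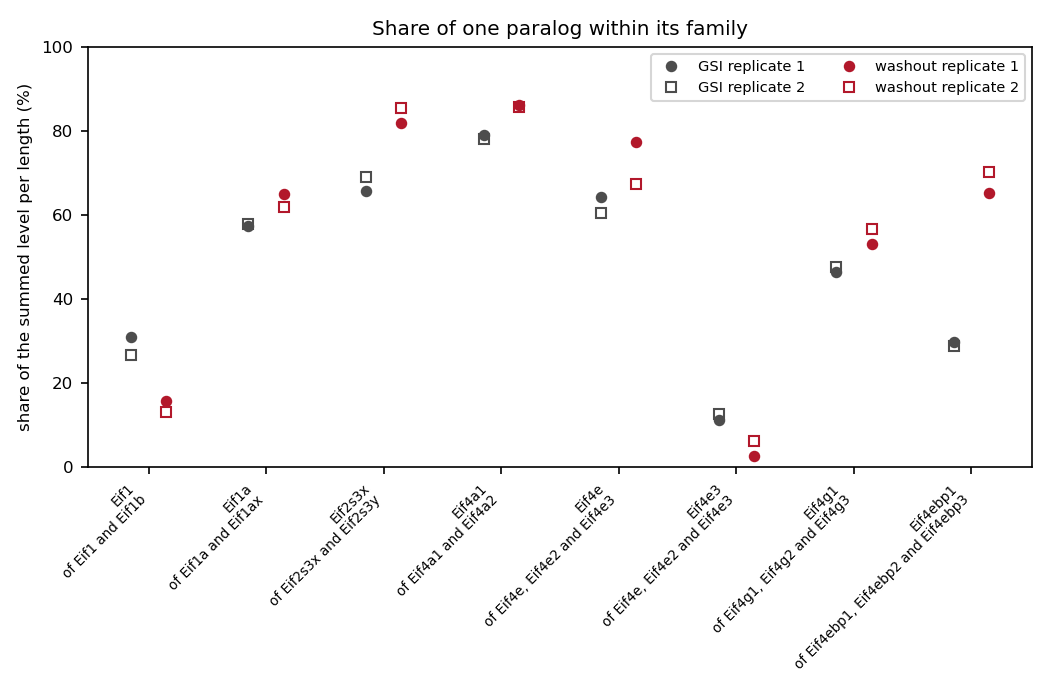
Share of a gene in the summed level per exon length of its paralogs (vertical axis, %) in each library, with circles for replicate 1 and squares for replicate 2. The share of Eif4ebp1 among the 4E-BPs moved the most, from 29.7% and 28.7% in GSI to 65.3% and 70.3% after washout, and the shares of Eif1 and Eif4e3 were lower after washout.

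Of all members, Eif4ebp1 changed the most, and it encodes an inhibitor. Its protein, 4E-BP1, holds eIF4E away from the scaffold until mTORC1 phosphorylates it. The gene lies at chr8:28370799-28386128 (mm9, plus strand) and shares no exon bases with another gene. It was at 12.9 and 14.2 CPM in GSI and at 55.9 and 80.6 CPM after washout. The washout libraries were both far above the GSI libraries, with replicate 2 the higher. The log2 fold change was 2.33 (SE 0.20, adjusted p = 0.00045 by edgeR's quasi-likelihood test after Benjamini-Hochberg adjustment), a 5.03-fold rise, and it stayed between 2.07 and 2.58 over all alternatives.

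Its relatives did not share this. Eif4ebp2 was at 40.1 and 43.1 CPM in GSI and at 36.7 and 39.1 CPM after washout (log2 fold change -0.14, not called). Eif4ebp3 was at 6.41 and 8.84 CPM in GSI and at 7.26 and 9.60 CPM after washout, and 501 of its 744 exon bases are shared with Ankhd1, so its reads are uncertain. Eif4enif1, the protein that carries eIF4E into the nucleus, rose by 0.32. Per exon length, the ratio of Eif4ebp1 to Eif4e was 0.450 and 0.602 in GSI and 0.992 and 2.14 after washout. The ratio of all 3 4E-BPs to Eif4e was 1.51 and 2.10 in GSI and 1.52 and 3.05 after washout, and the groups overlapped. These are mRNA levels, and neither the proteins nor their phosphorylation were measured.

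eIF5A, which carries the amino acid hypusine and keeps the ribosome moving through difficult stretches, also rose strongly. Eif5a lies at chr11:69730216-69735460 (mm9, minus strand) and was at 298.0 and 360.7 CPM in GSI and at 1008 and 1035 CPM after washout. The log2 fold change was 1.63 (SE 0.14, adjusted p = 0.000446 by edgeR's quasi-likelihood test after Benjamini-Hochberg adjustment). Its paralog Eif5a2 was practically silent, with the single read given above. Eif6, which keeps the large subunit from joining too early, was at 66.2 and 72.2 CPM in GSI and at 134.2 and 137.5 CPM after washout and rose by 0.97.

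In the elongation group 5 of 8 genes rose and none fell, and the 2 most abundant members, Eef1a1 and Eef2, had smaller log2 fold changes than the subunits of the exchange factor. Eef1a1 was at 4499.6 and 4209.8 CPM in GSI and at 6269.9 and 6642 CPM after washout, a log2 fold change of 0.57 (SE 0.16, adjusted p = 0.0262 by edgeR's quasi-likelihood test after Benjamini-Hochberg adjustment). The groups did not overlap, but the call was lost without either GSI library and under total count scaling (0.37, adjusted p = 0.0938). Eef2 was at 5043 and 4909 CPM in GSI and at 5532 and 6065 CPM after washout, with a log2 fold change of 0.22 (adjusted p = 0.292). Per exon length, the ratio of Eef1a1 to Eef2 was 1.11 and 1.07 in GSI and 1.41 and 1.36 after washout.

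The exchange factor that reloads eEF1A with GTP rose in each of its parts. Eef1g was at 347.9 and 345.4 CPM in GSI and at 746.1 and 763.6 CPM after washout, a log2 fold change of 1.12 (SE 0.11). Eef1d and Eef1b2 rose by 0.82 and 0.74. Eef1e1 (AIMP3), which is named with these factors but is a scaffold of the multi-tRNA synthetase complex, rose the most of this group. It lies at chr13:38737567-38750897 (mm9, minus strand) and was at 21.6 and 18.9 CPM in GSI and at 68.8 and 59.1 CPM after washout, a log2 fold change of 1.65 (SE 0.13, adjusted p = 0.000397 by edgeR's quasi-likelihood test after Benjamini-Hochberg adjustment). Eef2k, the kinase that inactivates eEF2, overlapped between the groups at a log2 fold change of 0.06, and Eef2kmt, which methylates eEF2, at 0.14.

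Both termination factors that were detected rose. Etf1 (eRF1), which reads the stop codons, was at 200.1 and 174.8 CPM in GSI and at 463.7 and 338.6 CPM after washout, a log2 fold change of 1.10 (SE 0.17). Gspt1 (eRF3), its GTPase partner, was at 177.7 and 169.9 CPM in GSI and at 386.3 and 306.1 CPM after washout, with a log2 fold change of 0.99 (SE 0.14).

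Compared per exon length, the levels of Eef1a1 (1747 CPM per kb in GSI and 2590 after washout) and Eef2 (1606 and 1872) lay far above the other factors. Eif5a stood at 138.6 CPM per kb in GSI, below Eif4b at 264.2, and at 429.7 after washout, above Eif4b at 387.0.

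The genes that work on or beside these factors were counted in the same fit. Of 48 translation genes outside the names above, 28 rose (58.3%), 3 fell (6.25%) and 17 were not called, against 27.0% higher and 25.4% lower among all genes tested, and the median log2 fold change was 0.48. The enzymes that modify eIF5A and eEF2 rose in 7 of 8 cases. Dohh, which completes hypusine on eIF5A, rose by 1.003 and Dhps, which starts it, by 0.63. Of the enzymes that build diphthamide on eEF2, Dph5, Dph6 and Dph1 rose by 1.21, 1.08 and 1.02, whereas Dph7 was not called at 0.21.

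Initiation cofactors and recycling factors rose in 9 of 10 cases. Abce1, which splits the ribosome after termination, was at 199.97 and 185.8 CPM in GSI and at 562.5 and 440.4 CPM after washout (log2 fold change 1.38), and the only gene not called was Mcts2 at -0.18. Of 9 mitochondrial translation factors 5 rose, from Gfm1 at 0.97, the mitochondrial counterpart of eEF2, and Gfm2, which recycles the mitochondrial ribosome, was not called at 0.02.

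The regulators were mixed. Of 8 poly(A)-binding and cap-complex genes 3 rose and 1 fell. Pabpc4, a poly(A)-binding protein, was at 101.7 and 103.6 CPM in GSI and at 286.0 and 267.8 CPM after washout (1.43). Pdcd4, an inhibitor that captures the helicase eIF4A, was at 248.8 and 249.6 CPM in GSI and at 100.5 and 95.8 CPM after washout and fell by 1.34 on the log2 scale (SE 0.09, adjusted p = 0.000343 by edgeR's quasi-likelihood test after Benjamini-Hochberg adjustment). Thus Pdcd4 fell while Eif4a1 rose, and Eif4ebp1 rose together with Eif4e. The other 4E-BP genes, Eif4ebp2 and Eif4ebp3, were not called. Of 11 genes of mTORC1, S6 kinase and MNK, 3 rose (27.3%) and 2 fell (18.2%), shares near those of all genes tested. The values ran from Rheb, the activator of mTORC1, at 0.72 to Mknk1, a kinase of eIF4E, at -0.59.

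The calls were of different firmness. Of the 44 members that rose, 34 were called in each of the 15 alternatives, and the other 10 were Eef1a1, Eif2a, Eif2ak1, Eif2b4, Eif4a2, Eif4b, Eif4e2, Eif4enif1, Eif4g2 and Eif5b. Each of these 10 lost its call when at least 1 of the libraries was left out. Of the 16 past both thresholds, 7 stayed so in each of these 15 alternatives, namely Eif4ebp1, Eef1e1, Eif5a, Eif1a, Eif2s2, Eif1ax and Eif4a1. The glmTreat test against a log2 fold change of 1 is not among the 15, and it called only 4 members (Eef1e1, Eif1a, Eif4ebp1 and Eif5a). Neither of the 2 members that were lower was called in every alternative. The replicates of a group differed at the median member by 0.09 (GSI) and 0.13 (washout) on the log2 scale, and the largest gap after washout was that of Eif4e3, 0.89.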

How the data were processed

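RNA-Seq of 4 libraries of Beko cells was used, 2 per group, grouped by the treatment in the labels. The authors depleted ribosomal RNA, prepared stranded libraries, trimmed the reads, aligned them to mm9 with HISAT2 (2.2.1 in the submitters' processing notes) with introns of at most 3000 bases, and counted reads per gene. What they deposited are raw counts, not normalized. The alignment kept at most a single position per read, so reads that fit several gene copies equally well were not told apart. The strand setting of the counting is not given in the sources used here. Of the 66 genes, 44 have an intron longer than 3000 bases and 20 share exon bases with another gene, so part of their reads may be missing or shared.

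The groups were compared in edgeR 4.0.16 (R 4.3.3; filterByExpr, TMM, quasi-likelihood test, no covariate) over all 12266 genes tested, with Benjamini-Hochberg adjustment. CPM are counts scaled by library total and TMM factor. Levels per kb were divided by the exon length in GENCODE vM1 (mm9), which counts every base in an exon of any transcript of the gene. It can exceed the length of the mRNA made in these cells. Levels, shares and ratios set between genes therefore depend on the annotation. Each standard error was derived from the log2 fold change and its F statistic. "Rose" and "fell" mean an adjusted p-value under 0.05. The members, their groups and the lists were chosen with earlier results of these data known. The rule for named genes took the members past both thresholds, the highest and lowest member of each group, the paralog families, the kinases, the 4E-BPs and the members below the filter. Other members are named to account for all of them. The scripts were tested on simulated data. The 15 alternatives were DESeq2 1.42.0, other scalings and filters, thinned counts, a GC and length correction (95.6% of genes), a replicate block and leaving out each library. The glmTreat test was run in addition to them.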

Additional observations from a re-analysis of the deposited data

How the results depend on the processing

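No called member changed direction under any of the 15 alternatives to edgeR with TMM, and the counts of members that were higher stayed between 36 and 48. Of the 16 members past both thresholds, 8 remained with total count scaling, 9 with upper quartile factors, 9 with the GC and length correction with or without the replicate block, and 4 under glmTreat against 1 (Eef1e1, Eif1a, Eif4ebp1 and Eif5a). Without each library in turn 11 to 16 of them remained, and 11 to 20 members in all were past both thresholds. The count of members past both thresholds that were lower (0) became 1 with total count scaling, upper quartile factors and the GC and length correction with or without the replicate block, and was 0 to 1 without each library. The count of members that were lower by the adjusted p-value (2) was 1 with DESeq2, 5 with total count scaling, 4 with the GC and length correction and 0 to 2 without each library. The median log2 fold change (0.71) was 0.51 with total count scaling, 0.60 with upper quartile factors, 0.74 with every gene of at least 1 count, 0.67 with at least 10 counts in every library, and 0.66 with the GC and length correction. The scalings lowered all genes together, by a median of 0.20 for total count and 0.11 for upper quartile factors. Outside the members, Mtor and Rptor changed sign with the GC and length correction, from -0.00 to 0.33 and from -0.03 to 0.43. The cause of these changes was not tested.

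With the replicate number as a block, 46 members were higher and 4 lower, and 5 were lower on thinned counts with the block or with the GC and length correction and the block, where the median was 0.66. In that last fit Mtor, Rptor and Mknk2 changed sign, to 0.33, 0.43 and 0.19. The difference between replicates 1 and 2 correlated at 0.533 between the groups over the genes tested. With 2 pairs, and no label that gives the numbers a meaning, this does not establish pairs. Depth differs between the replicates of a group by 2.16-fold (GSI) and 2.52-fold (washout), and each group has 2 libraries, which limits the precision of every value.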
